A study of Mus musculus with 20 samples.

Results

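Interferon-stimulated genes are the transcripts that cells switch on when an interferon reaches its receptor, and 35 of them were followed here in mouse melanoma. They were listed by symbol, with the row of highest mean taken for a symbol that had several. Of the 35 listed genes, 34 were measured, out of 19504 named genes in all, and Ifi44 was not analysed here. The 20 samples fell into 6 groups of 2 genotypes and 3 compartments. Genotype B was Tyr::CreERT2;BrafCA/CA, in which 4-hydroxytamoxifen turns on BRAF V600E in melanocytes. Genotype B;p38α carried the same alleles plus p38αlox/lox, so that p38α (Mapk14) is deleted in the same cells. All mice were painted with 4-hydroxytamoxifen, 5 mg/ml in acetone, on postnatal days 2.5 and 3.5, UVB was given once at 6.24 kJ per square meter on day 3.5, and tumors were taken when they reached endpoint size. The groups were complete tumors (5 of B, 3 of B;p38α) and, after dissociation and magnetic selection on CD45, a CD45+ immune fraction (3 and 3) and a CD45- fraction of tumor and stroma (3 and 3). Cre is driven from the tyrosinase promoter, so CD45+ cells are not a target of the p38α deletion. Although named biological replicates, the samples are not tied to separate animals by the labels. The p-values therefore cover only their own spread, which may be technical in part.

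Type I interferons (IFN-α and IFN-β) bind the receptor pair IFNAR1 and IFNAR2, and the receptor's kinases JAK1 and TYK2 then act on transcription factors that include STAT2. STAT2 and IRF9 are subunits of the complex ISGF3, which binds the interferon-stimulated response element in target promoters. The products block viral RNA and protein, sense nucleic acids, and, as with IRF7, STAT2 and IRF9, raise or maintain the response itself. In tumors the same genes are read as a trace of interferon made by immune, stromal or malignant cells.

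The promoters of the members with the lowest p in the genotype comparison over all compartments show what such an element looks like, and they were chosen for print after that ranking was known. RefSeq promoter windows (GRCm38.p6), from 250 bases before to 50 bases after the transcription start, were found for 24 of the 34 measured members, with 27 windows in all. The core of the element was searched as GAAA, any 2 bases, GAAA on both strands, so that TTTC, any 2 bases, TTTC is the same motif read from the other strand. It was found in 12 of the 24 members (50%), against 1079 of 27025 genes with a window (3.99%). These 12 were Ifit1, Ifit3, Ifit3b, Oas1a, Oas3, Rsad2, Bst2, Eif2ak2, Trim30a, Stat2, Ifih1 and Isg15. The stretches below run 5′ to 3′ on the gene's own strand, with the motif matches in capitals.
Isg15, chr4:156200859-156201018, minus strand: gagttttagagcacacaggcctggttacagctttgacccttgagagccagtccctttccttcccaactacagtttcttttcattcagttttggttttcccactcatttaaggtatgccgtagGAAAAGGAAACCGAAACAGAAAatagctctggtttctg
Ifit1, chr19:34640689-34640848, plus strand: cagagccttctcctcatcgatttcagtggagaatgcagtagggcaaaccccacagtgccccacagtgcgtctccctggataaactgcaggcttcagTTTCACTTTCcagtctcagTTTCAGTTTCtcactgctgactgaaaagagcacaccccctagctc
Bst2, chr8:71537513-71537672, minus strand: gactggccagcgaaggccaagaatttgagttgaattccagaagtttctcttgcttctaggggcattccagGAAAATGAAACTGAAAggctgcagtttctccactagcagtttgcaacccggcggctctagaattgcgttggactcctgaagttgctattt
Ifit3, chr19:34583329-34583488, plus strand: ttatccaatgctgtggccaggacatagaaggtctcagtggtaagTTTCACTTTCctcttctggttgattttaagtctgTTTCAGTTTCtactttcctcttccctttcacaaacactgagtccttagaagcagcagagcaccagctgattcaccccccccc
Ifit3b, chr19:34607757-34607916, plus strand: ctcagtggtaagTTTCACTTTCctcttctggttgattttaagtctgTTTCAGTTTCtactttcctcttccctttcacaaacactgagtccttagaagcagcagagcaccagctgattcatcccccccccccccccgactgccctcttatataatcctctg

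In Isg15, 3 overlapping matches began 78, 72 and 66 bases before the start and formed a run of 22 capitals. Bst2 held a pair of overlapping matches that began 130 and 124 bases before the start. Ifit1 had its matches 104 and 85 bases before the start, on the reverse strand. Ifit3 and Ifit3b are neighboring copies, and their promoters show it. With the windows shifted by 32 bases and no gaps allowed, 201 of 268 bases compared were alike (75%). A stretch of unequal length in the copies would lower this share. Both genes held TTTCACTTTC and TTTCAGTTTC in the same order. A match is a description of letters and not a measured binding site, and its absence from a window says nothing about the factor.

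**Figure D1:**
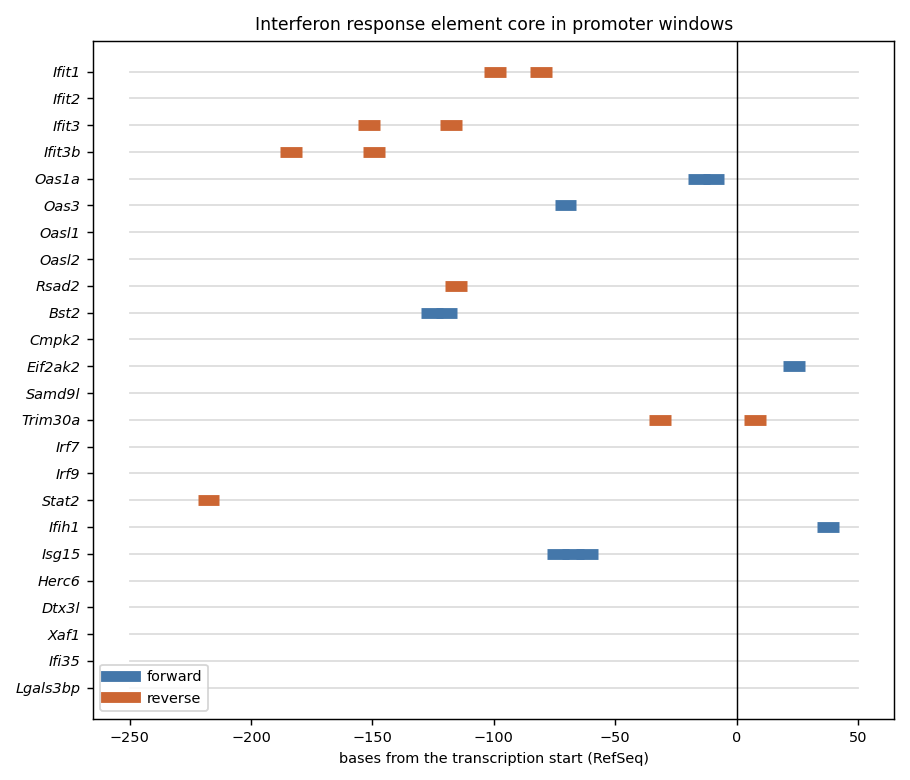
Positions of the motif (GAAA, any 2 bases, GAAA) in the RefSeq promoter windows of the 24 members that have one, by distance in bases from the transcription start (x axis) and gene (y axis), with colors for the strand of the match. Windows of a gene with several are drawn on the same line, as for Trim30a. The matches of Isg15 and Bst2 overlap and lie upstream of the start, those of Eif2ak2 and Ifih1 lie after it, and 12 members have none.

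The whole set of arrays was even in its medians, from 6.78 to 6.98 on the log2 scale, but less so in its spread. The interquartile range was narrowest, at 2.95, in replicate 1 of the B CD45- group, which also had the lowest median. Replicate 2 of the B CD45+ group came next at 3.41, and the widest was 3.89 (B;p38α CD45- replicate 1). The sort was visible: all 12 general leukocyte genes and all 15 measured macrophage and monocyte genes were called higher in CD45+ than in CD45- cells. Melanocyte genes had mean levels from 5.39 to 7.38 per sample. Only B complete replicate 1, at 7.38, was above the median of its own array (6.98). Mapk14 differed between the genotypes by -0.27 (complete), -0.18 (CD45+) and -0.16 (CD45-), with adjusted p from 0.672 to 0.807 (limma). The sources used here do not give where its probes lie relative to the deleted exons, and the value checks nothing about the labels. B;p38α CD45+ replicates 1 and 2 were more alike than any other pair of a group (r = 0.991, against at most 0.979). B CD45- replicate 1 stood apart from its own group (r = 0.912 and 0.909). In bulk samples such as these, fewer cells of a type and less RNA per cell cannot be told apart.

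The members were expressed most in the CD45+ fraction. Their mean log2 level per sample was 8.37 ± 0.19 (SD, n = 3) in B CD45+ and 8.72 ± 0.21 (n = 3) in B;p38α CD45+ cells. In complete tumors it was 7.97 ± 0.18 (n = 5) for B and 7.95 ± 0.48 (n = 3) for B;p38α. In CD45- cells it was 7.39 ± 0.43 (n = 3) for B and 7.56 ± 0.22 (n = 3) for B;p38α. Every CD45+ sample was above every CD45- sample, with 8.16 the lowest of the former and 7.87 the highest of the latter. Between genotypes the samples overlapped in complete tumors and in CD45- cells, and in CD45+ cells the highest B sample (8.53) lay just under the lowest B;p38α sample (8.58). Taken gene by gene, the highest group mean was in B;p38α CD45+ for 23 members, in B CD45+ for 6, in B;p38α complete tumors for 3 and in B complete tumors for 2. The lowest was in B CD45- for 19 members, in B;p38α CD45- for 10, in B;p38α complete tumors for 4 and in B CD45+ for 1.

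**Figure D2:**
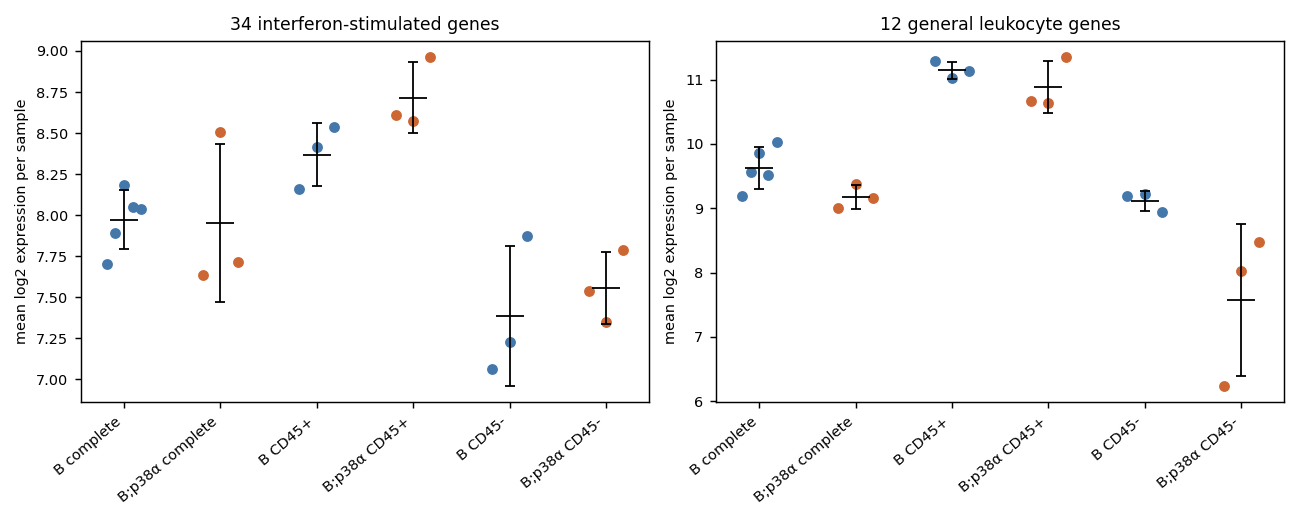
Mean log2 expression per sample (y axis) of the 34 measured interferon-stimulated genes (left) and of the 12 general leukocyte genes (right) in the 6 groups (x axis), with points for samples and bars for group means with SD. Interferon-stimulated genes in the 3 B;p38α CD45+ samples sit at 8.61, 8.58 and 8.96, above the 3 B CD45+ samples, and B;p38α complete replicate 2 sits at 8.50, above the other complete tumors. Leukocyte genes are high in all CD45+ samples.

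Between the sorted fractions, 25 of the 34 members were higher in CD45+ than in CD45- cells and 0 were lower (limma, adjusted p under 0.05 over all genes, both genotypes averaged). Over all genes tested, 7.79% were called higher and 4.37% lower. The median difference of the members was 0.96 on the log2 scale, against -0.08 over all genes, and 33 of 34 had a higher mean, against 38.6%. All 5 measured OAS genes, which make the 2′-5′ oligoadenylates that activate RNase L or are relatives of those enzymes, were called. So were all 3 transcription factors, both RNA sensors, all 3 genes of the ISG15 system and all 3 of the PARP and DTX3L group.

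In each fraction, levels are given for the 3 B samples first and the 3 B;p38α samples second. Mx1, a GTPase that blocks the replication of influenza-like viruses, differed most. Its level was 7.30, 7.21 and 7.89, then 7.96, 8.33 and 7.98, in CD45+ cells. In CD45- cells it was 4.90, 6.36 and 5.81, then 5.31, 5.43 and 5.64. No CD45- sample reached a CD45+ sample, and the difference was 2.20 ± 0.23 (SE, 4.60-fold, adjusted p = 0.000106, limma). Ifi27l2a, a small interferon-induced membrane protein gene, was 8.66, 8.42 and 8.57, then 8.65, 8.43 and 9.86 in CD45+ cells. Its CD45- levels of 6.22, 6.67, 6.77, then 6.39, 5.73, 7.63 were all lower, by 2.20 ± 0.32 (adjusted p = 0.001, limma).

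Trim30a, a TRIM protein that dampens Toll-like receptor signaling, had CD45+ levels of 9.61, 10.06 and 10.05, then 9.45, 9.16 and 10.36. The CD45- levels were 8.25, 7.58 and 8.75, then 6.06, 7.12 and 8.24. The fractions did not overlap and differed by 2.12 ± 0.36 (adjusted p = 0.00236, limma). Oasl1, an OAS relative that restrains translation of Irf7, was 5.89, 5.24 and 5.87, then 6.39, 6.34 and 7.27 in CD45+ cells. In CD45- cells it was 3.86, 3.94 and 4.34, then 4.87, 3.54 and 4.91, a difference of 1.92 ± 0.27 (adjusted p = 0.000704, limma) with no overlap. Irf7, the factor that amplifies interferon-α transcription, was 8.07, 8.20 and 8.42, then 8.53, 8.34 and 9.44 in CD45+ cells. Its CD45- levels of 5.95, 6.23, 7.11, then 6.63, 6.50, 7.77 were again all lower, by 1.80 ± 0.29 (adjusted p = 0.00168, limma). Irf9 and Stat2, subunits of ISGF3, were also called, higher by 0.66 and 0.90.

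Of the IFIT genes, whose products bind viral RNA ends and translation factors, 0 of 4 were called. Ifit2 was the one member with a lower mean in CD45+ cells. It was 8.32, 8.46 and 8.62, then 9.54, 9.56 and 8.98 in CD45+ cells, and 8.33, 9.73, 9.24, then 9.83, 9.20, 9.17 in CD45- cells. The fractions overlapped, and the difference was -0.34 ± 0.23 (adjusted p = 0.444, limma). Ifit1, Ifit3 and Ifit3b had higher means in CD45+ cells by 0.72, 0.66 and 0.72, with adjusted p from 0.0688 to 0.102 (limma), and within B;p38α the fractions did not overlap for these 3. Xaf1, Ifi35, Lgals3bp, Samd9l and Rsad2 were the other members that missed the threshold, at differences from 0.24 to 1.17. Taken within a genotype, 22 members had non-overlapping fractions with CD45+ higher in B, against 11.4% of all genes, and 30 in B;p38α, against 11.2%. Leukocyte content differed along with the members: the mean of the 12 leukocyte genes was 11.1 in B CD45+ and 10.9 in B;p38α CD45+ cells, and 9.11 and 7.58 in the CD45- cells. Their part in the members' split was not tested.

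**Figure D3:**
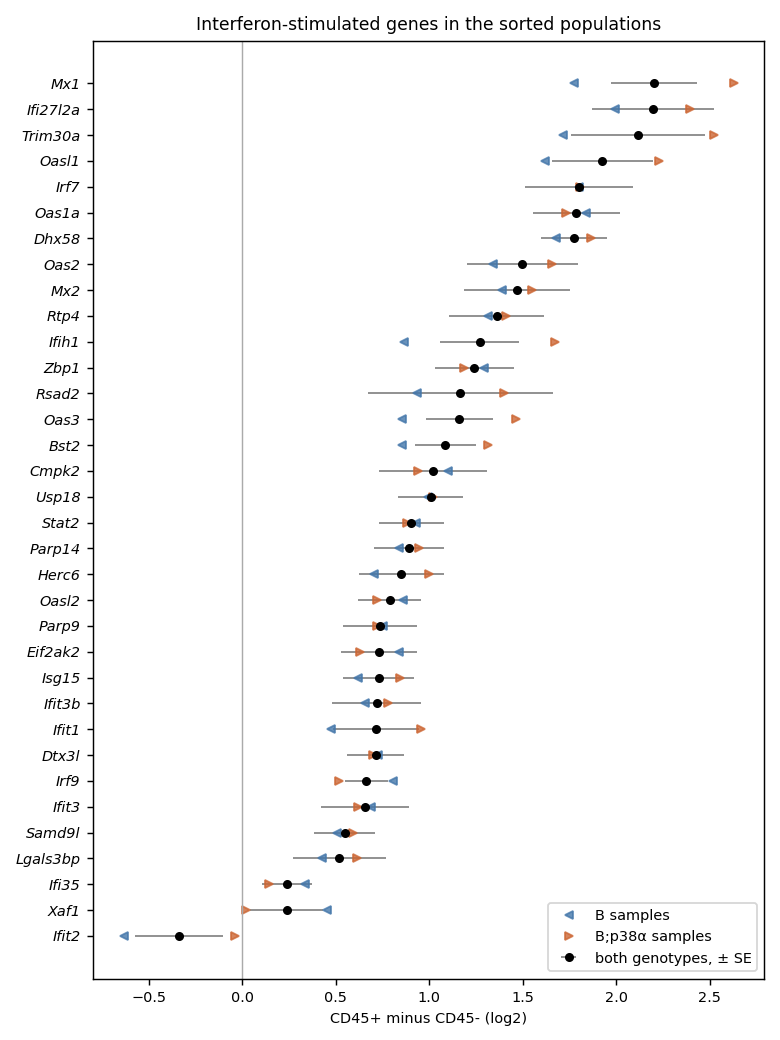
CD45+ minus CD45- difference on the log2 scale (x axis) of each measured member (y axis), where black points with SE bars are the fit over both genotypes and colored symbols the differences within B and within B;p38α. Mx1, Ifi27l2a and Trim30a lie beyond 2 log2 units, and Ifit2 is the one member left of 0 in the fit.

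The study set B;p38α against B within each compartment, which asks whether p38α loss in melanocytes goes with another expression state in the tumor or in its immune cells. In CD45+ cells, 28 of the 34 members had a higher mean in B;p38α than in B, against 50.4% of all genes. The median member difference was 0.33 on the log2 scale, against 0.00 over all genes. None passed the adjusted threshold in limma (0 of 34, with 0% of all genes called). With array weights, the median was 0.089 and 12 of 34 members were called, as were 5303 of all 19504 genes. B replicate 3 then had a weight of 6.39, against 0.334 and 0.496 for B replicates 1 and 2. At an unadjusted p under 0.05, 10 members were higher and 0 lower, against 5.69% and 5.08% of all genes. In 13 members every B;p38α sample was above every B sample, and in 1 (Irf9) every one was below, against 9.16% and 7.35% of all genes. Without B;p38α replicate 3 the median was 0.17 and 21 members were higher. With the alike replicates 1 and 2 averaged as 1 sample, it was 0.31 and 28.

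The 4 IFIT genes stood together in CD45+ cells. Their mean level was 7.99, 8.70 and 8.73 in the B samples and 9.49, 9.43 and 9.29 in the B;p38α samples. Ifit1, which binds RNA lacking cap methylation, was 7.10, 7.79 and 7.50 in B and 8.81, 8.63 and 8.41 in B;p38α. All 3 B;p38α samples were above all 3 B samples, with a difference of 1.15 ± 0.22 (SE, 2.22-fold, adjusted p = 0.392, limma). Ifit2 was 8.32, 8.46 and 8.62 in B and 9.54, 9.56 and 8.98 in B;p38α, a difference of 0.89 ± 0.21 (adjusted p = 0.395, limma) with no overlap. Ifit3b was 8.21, 9.23 and 9.36 against 9.90, 9.76 and 9.87, and Ifit3 was 8.31, 9.30 and 9.44 against 9.71, 9.78 and 9.91. Over all 20 samples the values of these neighboring copies were apart by a median of 0.09 and at most 0.40 (B complete replicate 2), and the probes may not separate them. Their differences were 0.91 ± 0.31 and 0.78 ± 0.30 (adjusted p = 0.448 and 0.45, limma).

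Isg15, the ubiquitin-like modifier that is coupled to newly made proteins, had the lowest p of the members. It was 6.24, 6.20 and 6.49 in B CD45+ cells and 7.40, 7.40 and 7.25 in B;p38α CD45+ cells. The groups did not overlap in these 6 samples and differed by 1.04 ± 0.16 (adjusted p = 0.293, limma). Its partners did not all follow. Usp18, the protease that removes ISG15 and shields the receptor, had a mean higher by 0.50 with overlapping groups, and Herc6, the mouse ligase for ISG15, had a difference of -0.35.

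Bst2 (tetherin), which holds budding virus at the cell surface, was 7.56, 8.14 and 8.15 in B and 8.83, 9.04 and 9.23 in B;p38α CD45+ cells. Its difference was 1.09 ± 0.22 (adjusted p = 0.392, limma), without overlap. Among the OAS genes, Oasl1 went from 5.89, 5.24 and 5.87 in B to 6.39, 6.34 and 7.27 in B;p38α, which is 1.00 ± 0.31 (adjusted p = 0.42, limma). Here replicate 3 of B;p38α was the highest sample, and the groups did not overlap. The other OAS means were higher in B;p38α by 0.06 to 0.76. Of the remaining effectors and sensors, Mx1, Xaf1, Ifih1, Ifi35, Oas3 and Oasl2 also had non-overlapping groups, at 0.24 to 0.76.

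Of the 3 transcription factors, 2 had a lower mean in B;p38α CD45+ cells. Irf9 was 9.07, 9.04 and 9.13 in B CD45+ cells and 8.63, 8.75 and 8.996 in B;p38α CD45+ cells, with every B;p38α sample lower and a difference of -0.29 ± 0.16 (adjusted p = 0.521, limma). Stat2 was 9.10, 9.32 and 9.49 against 9.20, 9.11 and 9.40, with overlapping groups and a difference of -0.07 ± 0.18. Irf7 was 8.07, 8.20 and 8.42 against 8.53, 8.34 and 9.44, with replicate 2 of B;p38α inside the B range and replicate 3 the highest sample. Its difference was 0.54 ± 0.30 (adjusted p = 0.513, limma). The lowest differences were those of Samd9l (-0.42), Herc6 and Eif2ak2 (-0.33), the RNA-dependent kinase PKR.

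**Figure D4:**
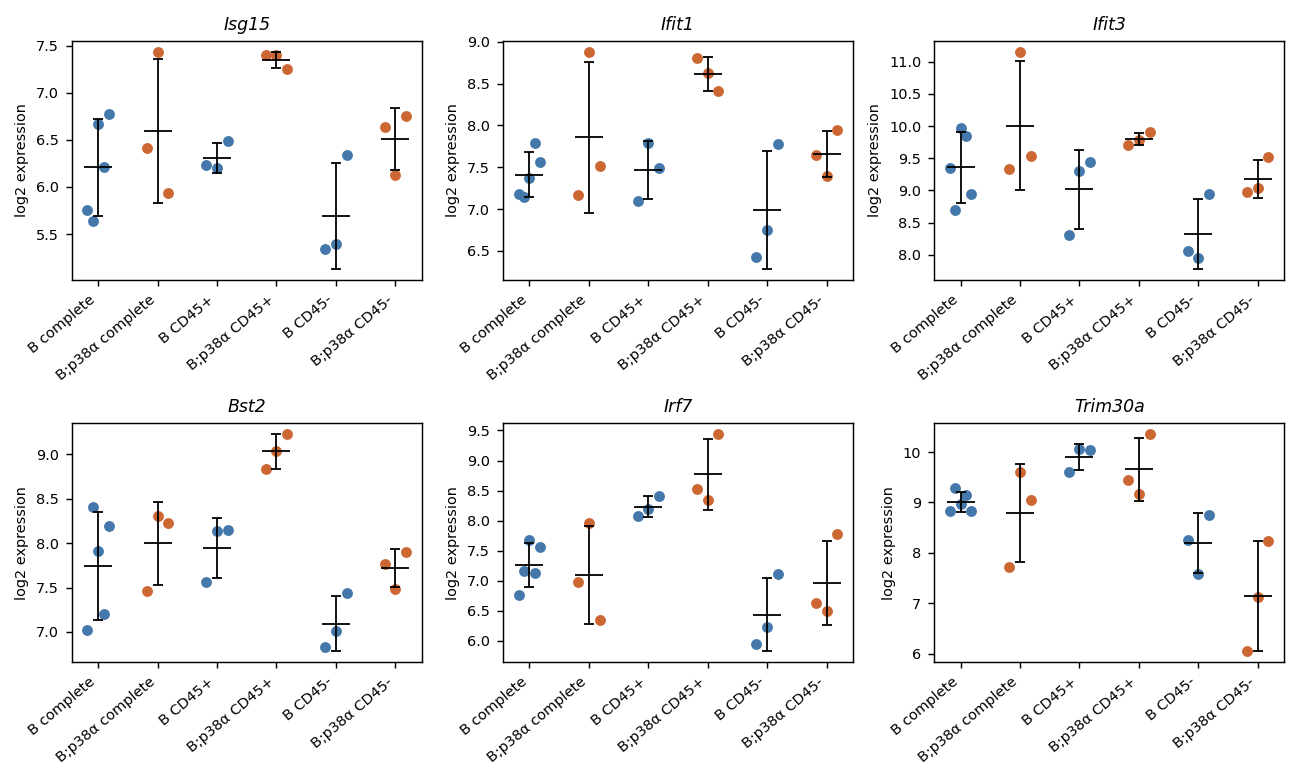
Log2 expression (y axis) of Isg15, Ifit1, Ifit3, Bst2, Irf7 and Trim30a in every sample of the 6 groups (x axis), with points for samples and bars for group means with SD. In CD45+ cells the B;p38α samples of Isg15 (7.25 to 7.40) lie above the B samples (6.20 to 6.49), while Irf7 and Trim30a overlap.

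Upstream of the members, Ifnb1, the interferon-β gene, had the largest difference of the 16 measured interferon ligands in CD45+ cells. It was 3.47, 3.60 and 3.49 in B and 7.01, 6.90 and 4.10 in B;p38α. The alike replicates 1 and 2 were the high ones, and replicate 3 was near the B level and within the range of the complete tumors (3.42 to 4.35). The difference was 2.48 ± 0.72 (adjusted p = 0.42, limma). Without replicate 3 of B;p38α it was 3.43 and passed the threshold (adjusted p = 0.0127), and with replicates 1 and 2 averaged it was 2.01 (adjusted p = 0.826). Within the 3 B;p38α CD45+ samples, replicate 3 was low in Ifnb1. It was the lowest for 5 members (Isg15, Ifit1, Ifit2, Mx2 and Ifih1), in the middle for 3 and the highest for 26. Its marker levels were mostly the highest too, with leukocyte genes at 11.35 against 10.67 and 10.64, and macrophage genes at 11.34 against 10.44 and 10.49. Only keratinocyte and Y-linked genes were not highest in it. The part of these groups in the members' order was not tested. Ifna4 followed at 0.45 ± 0.17 (adjusted p = 0.45, limma), and 11 of the 16 ligands had a lower mean.

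Of the receptor and kinase genes, 9 of 10 measured had a lower mean in B;p38α CD45+ cells, with a median of -0.24. Among all genes, 50.4% had a higher mean there. Ifngr1, the ligand-binding chain of the interferon-γ receptor, was 11.33, 11.34 and 11.43 in B and 10.63, 10.66 and 10.91 in B;p38α (-0.63 ± 0.16, adjusted p = 0.412, limma). Ifnar2, a chain of the type I receptor, had a difference of -0.38 ± 0.19. Of 15 nucleic acid sensors and adaptors 6 had a higher mean, and the DNA sensor Tlr9 (-0.63) and the RNA sensor Tlr3 (-0.58) differed most. Cxcl10, a chemokine that draws T cells, was 8.11, 7.22 and 7.48 in B and 9.01, 9.17 and 8.54 in B;p38α, 1.30 ± 0.28 apart (adjusted p = 0.395, limma) without overlap. The rest of the 20 measured interferon-γ response genes were evenly spread, with 9 higher in mean and a median of -0.00, and Irgm2 next at 0.55. A further 43 interferon-induced genes outside the list also had no common direction, with 22 higher in mean, a median of 0.01, and Gm4951 (0.55) and Trim12c (-0.43) the farthest from 0. Among 13 brakes on the response 9 were higher in mean, and Socs3, a feedback inhibitor of JAK kinases, was 9.97, 8.33 and 8.76 in B against 9.86, 9.73 and 10.20 in B;p38α (0.91 ± 0.40, adjusted p = 0.47, limma), followed by Rnaseh2a (0.60). In limma 0 of the 115 genes of these lists passed the adjusted threshold. At an unadjusted p under 0.05, 3 were higher (2.61%) and 2 lower (1.74%), below the 5.69% and 5.08% of all genes.

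Other gene groups differed between the CD45+ samples as well. The Y-linked genes had a mean level of 8.67, 4.30 and 5.36 in the B samples and 3.23, 3.01 and 2.75 in the B;p38α samples, so these genes were not balanced between the genotypes. With that mean as a covariate the members' median was 0.11, with Isg15 at 1.01 and Ifit1 at 0.72. All 10 immediate early genes, which dissociation can induce, had a higher mean in B;p38α (median 0.53), with mean levels of 11.31, 10.73 and 10.75 in B and 11.32, 11.31 and 11.63 in B;p38α. Of the leukocyte genes 1 of 12 and of the macrophage genes 2 of 15 were higher in mean, and 0 of 8 endothelial genes. Plasmacytoid dendritic cells are a known source of type I interferon, and their 10 markers had a mean of 7.37, 7.90 and 7.85 in B and 7.10, 6.99 and 8.07 in B;p38α. The part of these groups in the members' differences was not tested.

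In CD45- cells a common direction of the members was less clear. Of the 34, 22 had a higher mean in B;p38α, against 55.8% of all genes, and the median was 0.18, against 0.05. Again limma called 0 of 34 members (0.0103% of all genes), and at an unadjusted p under 0.05, 4 were higher and 0 lower, against 3.5% and 3.27% of all genes. Groups did not overlap for 5 members with B;p38α higher (Ifit3, Bst2, Usp18, Xaf1, Ifi35) and for 1 with it lower (Samd9l), against 10.6% and 5.36% of all genes. Without B replicate 1, the sample that stood apart, the median turned to -0.03. Its size also rested on single samples, at 0.44 without B replicate 3.

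Trim30a had the largest difference in CD45- cells. It was 8.25, 7.58 and 8.75 in B and 6.06, 7.12 and 8.24 in B;p38α, with overlapping groups and a difference of -1.06 ± 0.57 (adjusted p = 0.675, limma). Leukocyte genes differed in the same direction, with 0 of 12 higher in mean and mean levels of 9.19, 9.22 and 8.94 in B and 6.24, 8.02 and 8.47 in B;p38α. Trim30a was high in CD45+ cells, and its levels were in the same order as those of the leukocyte genes in B;p38α CD45- cells and in the reverse order in B CD45- cells. Their part in its difference was not tested. Macrophage genes had 0 of 15 higher in mean, at a median of -1.96.

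Xaf1, an interferon-induced partner of the apoptosis inhibitor XIAP, was 7.69, 8.53 and 8.99 in B and 9.42, 9.29 and 9.07 in B;p38α CD45- cells. B replicate 1 was far lower than the rest, the groups did not overlap, and the difference was 0.86 ± 0.35 (adjusted p = 0.675, limma). Ifit3 was 8.07, 7.96 and 8.95 against 8.98, 9.04 and 9.51 (0.85 ± 0.33), and Ifit3b was 7.96, 7.89 and 8.99 against 8.94, 8.98 and 9.26 (0.78 ± 0.33). In both copies B replicate 3 reached or nearly reached the B;p38α samples. Isg15 was 5.34, 5.39 and 6.34 in B and 6.63, 6.13 and 6.75 in B;p38α, overlapping, at 0.82 ± 0.34. Ifit1 was 6.43, 6.75 and 7.78 against 7.64, 7.40 and 7.95, overlapping, at 0.68 ± 0.38. B replicate 3 was thus the B sample closest to B;p38α for all of these.

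Irf7 was 5.95, 6.23 and 7.11 in B and 6.63, 6.50 and 7.77 in B;p38α CD45- cells (0.54 ± 0.44). Irf9 was 8.11, 8.27 and 8.44 against 8.37, 8.20 and 8.25, and Stat2 was 8.22, 8.10 and 8.81 against 7.92, 8.47 and 8.68. The groups overlapped for all 3 factors, and the differences of Irf9 and Stat2 were -0.00 ± 0.20 and -0.02 ± 0.30. Of the other lists, the sensors Tlr7 (-1.60) and Aim2 (-1.49) and the induced genes Ms4a4c (-1.68) and Ifi207 (-1.55) differed most in CD45- cells. All 4 had adjusted p = 0.675 in limma, and Tlr7, Aim2, Ms4a4c and Ifi207 were called higher in CD45+ than in CD45- cells.

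In complete tumors the members showed no common direction. Of the 34, 14 had a higher mean in B;p38α, against 48.2% of all genes, with a median of -0.04, against -0.01. Limma called 0 of 34 (0% of all genes), and at an unadjusted p under 0.05, 0 were higher and 3 lower, against 2.85% and 3.76% of all genes. Groups did not overlap for 0 members with B;p38α higher and for 2 with it lower (Lgals3bp and Dhx58), against 1.92% and 2.54%. B;p38α replicate 2 carried the spread: its mean over the members was 8.50, against 7.64 and 7.71 in the others of its group and 7.70 to 8.18 in B. Without it 5 members had a higher mean and the median was -0.27, while without B;p38α replicate 1 it was 22 members and 0.12.

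Ifi27l2a had the largest difference in complete tumors. It was 8.81, 8.83, 9.05, 8.27 and 8.84 in B and 6.71, 8.74 and 7.85 in B;p38α, so 2 of 3 B;p38α samples were below all of B, at -0.99 ± 0.38 (adjusted p = 0.733, limma). Lgals3bp, a secreted glycoprotein that binds galectins, was 8.79, 9.35, 8.97, 8.997 and 9.42 against 8.78, 8.29 and 8.51. It differed by -0.58 ± 0.20 (adjusted p = 0.721, limma), with the nearest samples of the groups almost equal. Oas2 was 7.52, 8.59, 8.47, 8.66 and 8.73 in B and 7.56, 8.27 and 7.90 in B;p38α (-0.49 ± 0.29), overlapping through B replicate 1.

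Ifit3, Ifit3b and Ifit1 had higher means in B;p38α complete tumors, and 1 sample carried them. Ifit3 was 9.34, 8.70, 9.97, 9.84 and 8.95 in B and 9.33, 11.15 and 9.54 in B;p38α (0.65 ± 0.43, adjusted p = 0.843, limma). Ifit3b was 9.16, 9.10, 9.80, 9.84 and 8.80 against 9.22, 11.11 and 9.43 (0.58 ± 0.42), and Ifit1 was 7.18, 7.14, 7.37, 7.79 and 7.57 against 7.17, 8.88 and 7.52 (0.45 ± 0.35). In each, B;p38α replicate 2 was the highest of the 8 tumors and the other B;p38α samples lay within B. Without that sample the differences were 0.07, -0.02 and -0.07. Among the factors, Irf7 was 6.75, 7.16, 7.67, 7.13 and 7.56 against 6.98, 7.96 and 6.34 (-0.16 ± 0.34), again with replicate 2 highest. Irf9 (8.27, 8.58, 8.89, 8.79 and 8.59 against 8.55, 8.81 and 8.48) and Stat2 (8.30, 8.96, 8.78, 8.63 and 9.14 against 8.64, 8.65 and 8.16) overlapped, at -0.01 ± 0.18 and -0.28 ± 0.22.

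Of the other interferon lists in complete tumors, the interferon-γ targets Cxcl9 (1.17 ± 0.36, adjusted p = 0.716, limma) and Cxcl10 (0.62 ± 0.36) differed most upward. Myd88, the Toll-like receptor adaptor, and Slfn2, an interferon-induced Schlafen gene, had differences of -0.58 and -0.62. Leukocyte genes had 2 of 12 and macrophage genes 2 of 15 higher in mean, at medians of -0.49 and -0.63. Skeletal muscle genes had a mean level of 10.25 to 11.05 in the B tumors and of 5.69, 8.77 and 10.90 in B;p38α, with 0 of 7 higher in mean. Adipocyte genes were at 7.86 ± 1.15 (SD, n = 5) in B and 6.34 ± 0.31 (n = 3) in B;p38α, with 0 of 5 higher. The Y-linked genes were at 8.93, 3.72, 3.39, 9.29 and 2.76 in B and at 2.99, 3.85 and 3.35 in B;p38α, so 2 of 5 B tumors and 0 of 3 B;p38α tumors were high. In CD45- cells they were at 6.79, 8.60 and 2.79 in B and at 3.32, 8.81 and 3.30 in B;p38α. The part of these groups in the members' values of complete tumors was not tested.

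**Figure D5:**
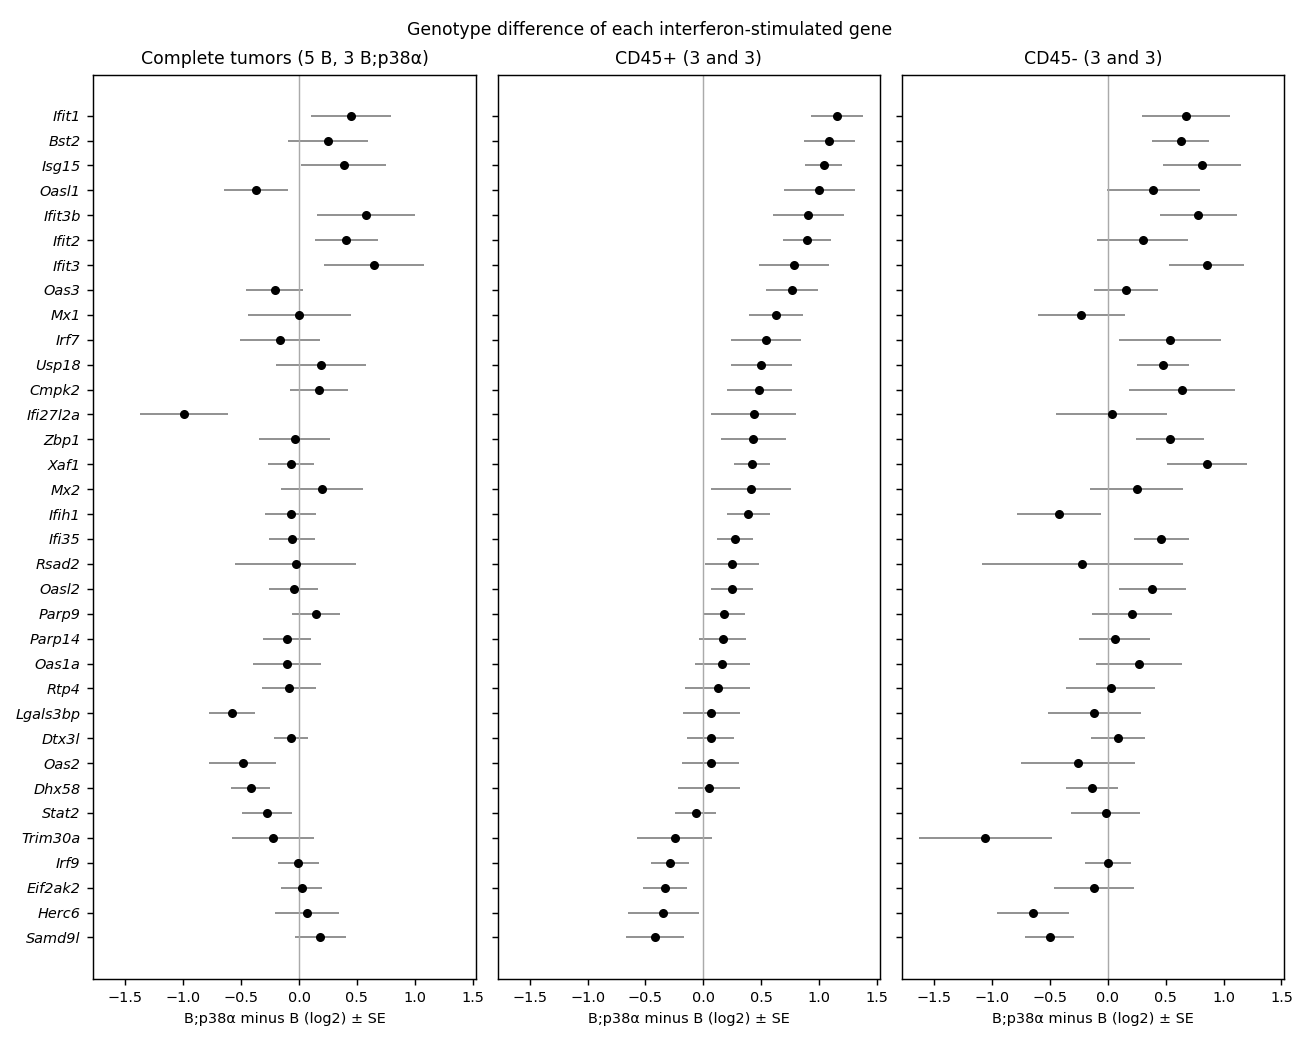
Genotype difference, as log2 B;p38α minus log2 B, with its SE (x axis) for each measured member (y axis) in panels for complete tumors, for CD45+ and for CD45- cells. In CD45+ cells 28 of 34 points lie right of 0, in CD45- cells 22 and in complete tumors 14. Isg15, Bst2 and the IFIT genes are right of 0 in all 3 panels, but in complete tumors Isg15 (-0.03), Ifit1 (-0.07) and Ifit3b (-0.02) are left of 0 without B;p38α replicate 2.

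Over all compartments, with compartment as a covariate, the members with the lowest p were again Isg15, Ifit1, Bst2, Ifit3 and Ifit3b. Isg15 differed by 0.72 ± 0.20 (adjusted p = 0.157, limma), Ifit1 by 0.73 ± 0.21 (0.165) and Bst2 by 0.63 ± 0.19 (0.177). Ifit3 and Ifit3b differed by 0.75 ± 0.23 and 0.74 ± 0.23 (both 0.181), and Ifit2 by 0.52 ± 0.18 (0.216). These 6 and Xaf1 were the members higher at an unadjusted p under 0.05, 7 of 34 against 7.88% of all genes. By the adjusted p limma called 0 of 34 members, against 0.082% of all genes. In this fit 22 members had a higher mean (53.1% of all genes), and the median was 0.15, or 0.06 without B CD45- replicate 1 and 0.23 without B;p38α complete replicate 3. In all 3 compartments alike, 10 members had a higher mean in B;p38α (Ifit1, Ifit2, Ifit3, Ifit3b, Mx2, Bst2, Cmpk2, Isg15, Usp18 and Parp9), and Trim30a, Irf9 and Stat2 a lower one, though Irf9 in complete tumors was at 0.00099 with repeated quantile normalization. Of all genes, 18.4% were higher in all 3. Ifit3 and Ifit3b, which the probes may not separate, were counted as 2 members here and in the other counts. The count of 10 rested on single complete tumors. Without B;p38α replicate 2 it was 5, of which Ifit2, Ifit3, Bst2 and Cmpk2 were among the 10 and Dtx3l was not, and without B;p38α replicate 3 it was 17. The count of members lower in all 3 ran from 1 to 6 with single samples left out. Ifit3, Bst2, Xaf1 and Ifi35 (4 of 34) had non-overlapping groups, with B;p38α higher, in both sorted fractions, against 2.98% of all genes.

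Whether the genotype difference itself changed between compartments was tested as an interaction, and limma called 0 of 34 members in each of 3 such tests (0% of all genes in each). Between CD45+ and CD45- cells, 0 members had an unadjusted p under 0.05, against 2.34% of all genes. Between CD45+ cells and complete tumors there were 3, against 7.22%. The difference was larger in CD45+ cells for Oasl1 (by 1.37 ± 0.50), Oas3 (0.97 ± 0.37) and Ifi27l2a (1.43 ± 0.64), with adjusted p of 0.682, 0.682 and 0.685 (limma). Between CD45- cells and complete tumors there were 2, Xaf1 (0.92 ± 0.34) and Samd9l (-0.69 ± 0.32), against 9.69%. So the genotype difference in CD45+ cells was not shown to differ from that in the other compartments.

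The sorted fractions also differed in the rest of the pathway, mostly in one direction. Receptors and kinases were called higher in CD45+ cells for 7 of 10 genes (Ifnar1, Ifnar2, Ifngr1, Ifngr2, Il10rb, Jak2 and Tyk2), from 0.43 for Ifnar1 to 1.26 for Il10rb. Sensors and adaptors were called for 8 of 15 (Tlr7, Tlr9, Cgas, Sting1, Myd88, Tbk1, Aim2 and Irf5), led by Tlr7 at 3.28 and Tlr9 at 2.69. Of the ligands only Ifng, the product of activated T and NK cells, was called among the 16 measured, at 2.21. Interferon-γ response genes were called for 9 of 20 (Irf1, Irf8, Ciita, Cxcl10, Gbp4, Igtp, Irgm1, Nos2 and Cd274), with Ciita, the master switch of MHC class II, at 2.44. Of the 43 further induced genes 21 were called, with Ifi209 (3.09) and Ms4a4c (2.84) farthest, and of the 13 brakes 4 were called (Adar, Ptpn6, Samhd1 and Tnfaip3). None of these lists had a gene called lower (limma, adjusted p under 0.05). Among all genes, 7.79% were called higher and 4.37% lower in this comparison. By the unadjusted p, 64 of the 115 listed genes passed 0.05 upward (55.7%) and 1 downward (0.87%). The shares among all genes were 11.9% and 12.4%.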

How the data were processed

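Total RNA from 20 samples was labelled with biotin and hybridised to arrays. As deposited by the authors, the table gives expression on a log2 scale after RMA (the submitters' processing notes name it). No version or genome build is given in the sources used here, and the arrays run together are not named. The table held 21244 rows, of which 19570 had 1 gene symbol and 1674 none, giving 19504 genes after the row with the highest mean was kept. All 19570 names matched RefSeq by entrez number.

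Groups were compared with limma 3.58.1 (lmFit and eBayes, R 4.3.3) on the log2 values, with Benjamini-Hochberg adjustment over all 19504 genes and a threshold of 0.05. Folds are powers of these differences. Each genotype comparison used the samples of its compartment, the sorted comparison all 4 sorted groups, and the interactions and the fit over compartments all 6 groups. The steps were run on simulated data with independent normal noise of the same spread in every sample. The only check was the median error of the differences put in. Arrays that stand apart or are alike were not simulated, so that run says nothing about the calls made here. The number of arrays limits the precision. An exact permutation test of 3 samples against 3 cannot go below 0.1 and was not used.

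Values in every sample are given for the 6 members with the largest absolute difference in each genotype comparison, for Irf7, Irf9 and Stat2, and for the 5 with the largest differences each way between the sorted fractions. Of the pathway lists, the 2 largest differences and genes past the threshold were eligible. Bst2 and Ifit2 fall under this rule in CD45+ cells. The members and lists were chosen with earlier results of these data known, so lists are described by counts and medians without a test. Same-numbered samples were checked for pairing by the correlations of their deviations, which ran from -0.568 to 0.363. Between CD45+ and CD45- cells they were -0.465, -0.568 and 0.363 in B and 0.305, -0.111 and 0.353 in B;p38α. With 3 samples in a group, these values cannot decide whether same-numbered fractions share a tumor, and numbers were not used as pairs. Y-linked levels of replicate 2 were 4.30 in CD45+ and 8.60 in CD45- cells of B, and 3.01 and 8.81 in B;p38α. Alternatives were a single fit of 6 groups, a replicate block, a filter on genes under the 30th percentile, repeated quantile normalization, array weights, a trended robust variance, the lowest-mean row, Y-linked genes as a covariate, averaging of 2 alike samples, and leaving out each sample. Plots used matplotlib 3.10.9 and Python 3.11.15.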

Additional observations from a re-analysis of the deposited data

Results flagged for a closer look

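Among the B complete tumors, replicate 1 lay far below the others in 2 members, by Dixon's gap test. Its Oas2 level was 7.516, with the next sample at 8.466 and the highest at 8.731, so the gap took up 0.782 of the range. Its Rtp4 level was 7.433, with the next at 7.786 and the highest at 7.889, a gap of 0.773 of the range. The critical value for 5 samples is 0.71. The test was run on 35 sets of 5 samples and marked 2, and chance marks about 1 in 20. The same sample had the highest melanocyte level, 7.38, of the complete tumors, and the highest keratinocyte level, 7.37, with the others at 4.86 to 5.71. It was the lowest of them in T cell (5.82), NK cell (4.45), B cell (4.96) and conventional dendritic cell genes (6.07). The part of these groups in its low values was not tested. Groups of 3 samples were not tested.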

How the results depend on the processing

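Of 314 summary values recomputed under the alternatives, 311 were counted as unchanged. That count does not mean that every sign held. With single samples left out, the members' median changed sign in complete tumors and in CD45- cells, as given below. Of 1273 values of single genes, 1235 kept their direction and side of the threshold. Of these gene values, 19 reversed, 19 passed the threshold and 0 lost it. Array weights changed the most. In CD45+ cells they gave a median of 0.089 and called 12 of 34 members, where equal weights called 0, and 5303 of all 19504 genes. The weights of the B samples there were 0.334, 0.496 and 6.39, and those of the B;p38α samples 1.49, 1.93 and 0.329. The B side of these calls thus rested mostly on replicate 3. Ifit1 (adjusted p = 0.00757, limma), Isg15 (0.00757), Ifit2 (0.0081), Bst2 (0.00878), Oasl1 (0.0417) and, lower in B;p38α, Irf9 (0.0308) were among those members. The Y-linked covariate gave a median of 0.11 there and 250 genes. The cause of these shifts was not tested.

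In complete tumors, Irf9 was 0.040 with the replicate block, 0.00099 with repeated quantile normalization, and -0.10 to 0.062 with single samples left out. Left out singly, samples also gave -0.017 to 0.93 for Ifit3b, -0.065 to 0.79 for Ifit1 and -0.60 to 0.21 for Irf7. In CD45+ cells, Gm4951 was -0.024 with array weights and -0.42 with the Y-linked covariate, and Irgm2 was -0.20 with the latter. Stat2 ran from -0.17 to 0.028 there with single samples left out. In CD45- cells, Stat2 was 0.011 with array weights and -0.18 to 0.20 with single samples left out, and Irf9 was -0.085 to 0.085.

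With each sample left out in turn, the members' median ran from -0.27 to 0.12 in complete tumors. It was 0.17 to 0.42 in CD45+ cells, -0.03 to 0.44 in CD45- cells and 0.06 to 0.23 over all compartments. Between the sorted fractions it was 0.86 to 1.04, with 20 to 30 members called. With all samples 25 were called, as were 12.2% of all genes in either direction. The counts of all genes in the fits with a sample left out are not given here. The labels do not say whether same-numbered samples share a tumor. The replicate block changed no call of a member (25 between the fractions). It called 27 of all genes in complete tumors, where 0 were called without it, 14 and 27 in the interactions with complete tumors, and 1645 between the fractions.

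Counts of all genes called moved by over 1.5 times elsewhere too. In complete tumors they reached 49 without B replicate 4. In CD45+ cells they were 2 with all 6 groups fitted, 5 with a trended variance, 7 without dim genes and 30 without replicate 3 of B;p38α. Over all compartments, array weights gave 134 and leaving out that CD45+ sample 86. Between the fractions array weights gave 4275, and in the interaction of CD45+ cells with complete tumors 761.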
